A study of Mus musculus with 24 samples.

Results

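The genes described here are 10 that are commonly used to recognise astrocytes and Bergmann glia, measured in the cerebellum of mice with and without Thumpd1. They are Gfap, S100b, Slc1a3, Slc1a2, Aqp4, Gja1, Gdf10, Hopx, Aldoc and Aldh1l1. They were chosen by name, with earlier results of these data known, and all 10 were found among the 55450 genes of the table, each as 1 row. Liver and testes of the same genotypes served as background tissues.

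Astrocytes are glial cells that take up glutamate and potassium, move water at blood vessels and couple to each other through gap junctions. Bergmann glia are the unipolar astrocytes of the cerebellar cortex, with cell bodies beside the Purkinje cells and fibres that cross the molecular layer and wrap Purkinje synapses. GFAP, a filament protein, is the marker most often read as a sign of astrocyte reactivity, whereas the glutamate transporters mark the resting functions of the same cells.

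Thumpd1 is the adapter protein through which the acetyltransferase Nat10 modifies transfer RNA. Total RNA of KO and WT mice was sequenced in 3 tissues (cerebellum, liver and testes), with 4 libraries in each of 6 groups. The KO allele is a whole-body deletion made by cutting exons 1 and 4 of Thumpd1 with CRISPR-Cas9 in C57BL/6N eggs, so that every cell type of an animal carried it, and which founder line was sequenced is not given in the sources used here. Mice were 6 to 12 weeks old and were housed under the same light cycle, and age-matched WT littermates served as controls. Animals of either sex were used in the study, and the testes libraries come from males. For cerebellum and liver the labels do not give the sex, and for no tissue do they give the animal of a library. Libraries 1 to 4 are WT and libraries 5 to 8 are KO in each tissue.

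Sequencing depth was 16353797 to 24728845 counts per library in cerebellum, 18145725 to 37889615 in liver and 27273231 to 36621604 in testes. Thumpd1 itself had 406 to 539 counts in the WT cerebellum libraries and 0 to 2 in the KO cerebellum libraries. In the testes, 23 to 41 Thumpd1 counts were found in the KO libraries against 740 to 846 in WT. Levels are given in CPM, the read count of a gene scaled to the total count of its library, and changes as the log2 difference of KO minus WT with its standard error, from limma-voom with 4 libraries per genotype. A gene was called where its Benjamini-Hochberg adjusted p was under 0.05 over all genes tested in that tissue.

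Libraries with neighbouring numbers (1 and 2, 3 and 4, 5 and 6, 7 and 8) were closer to each other than all other pairs of their group in 3 of the 6 groups. In WT cerebellum, the SD of the log2 differences between libraries 1 and 2 and between 3 and 4 was 0.131 to 0.135, against 0.243 to 0.258 for the other 4 pairs, and KO liver and KO testes were the other groups. In KO cerebellum libraries 7 and 8 differed by 0.191, more than 5 and 8 (0.180), in WT liver libraries 3 and 4 differed by 0.277, more than 1 and 3 (0.245), and in WT testes libraries 1 and 2 were the least alike pair (0.225). Summed choroid plexus genes (8 genes, among them transthyretin) stood at 1063 and 1090.4 CPM in WT libraries 1 and 2, at 18.1 and 17.1 in WT libraries 3 and 4, at 21.6 and 22.5 in KO libraries 5 and 6, and at 366 in both KO libraries 7 and 8. Whether neighbouring libraries share an animal or a dissection is not in the labels. The p-values below treat each library as separate. The calls of the 10 genes within a tissue are therefore also given with neighbours summed to 2 samples per genotype, and with a correlation between neighbours estimated by limma (0.131 in cerebellum, 0.476 in liver, 0.339 in testes). Differences between tissues were not refitted in these ways. Outside the 10 genes, 27 genes of other lists were called in cerebellum and are named by the rule used here, and 17 of them passed with the estimated correlation and 3 with neighbours summed (Slc1a4, Gabra6 and Nrgn).

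Of the glial genes, Gfap, Gja1 and S100b were higher in the KO cerebellum, at 117, 111 and 110% of the WT level. The other 7 did not pass the test, and no gene of the 10 was called lower. With the estimated correlation Gfap and S100b passed and Gja1 did not (adjusted p = 0.0510), and with neighbours summed none did. The promoter bases of these genes are shown because they are the ones called in cerebellum. Each is the 250 bases before the RefSeq transcript start (GRCm38.p6), 5′ to 3′ on the strand of the gene, with matches to the motifs searched in capitals. Gfap (chr11:102897201-102897450, minus strand), Gja1 (chr10:56377050-56377299, plus strand) and S100b (chr10:76253586-76253835, plus strand) read:
Gfap: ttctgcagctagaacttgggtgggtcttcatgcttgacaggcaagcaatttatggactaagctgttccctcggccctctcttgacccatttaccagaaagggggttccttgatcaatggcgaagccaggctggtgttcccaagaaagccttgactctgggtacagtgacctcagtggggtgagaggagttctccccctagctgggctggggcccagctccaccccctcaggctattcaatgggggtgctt
Gja1: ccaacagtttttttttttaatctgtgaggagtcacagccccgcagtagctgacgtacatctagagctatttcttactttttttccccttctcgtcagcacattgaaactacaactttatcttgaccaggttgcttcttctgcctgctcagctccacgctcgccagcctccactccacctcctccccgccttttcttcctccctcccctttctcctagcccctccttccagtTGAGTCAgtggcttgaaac
S100b: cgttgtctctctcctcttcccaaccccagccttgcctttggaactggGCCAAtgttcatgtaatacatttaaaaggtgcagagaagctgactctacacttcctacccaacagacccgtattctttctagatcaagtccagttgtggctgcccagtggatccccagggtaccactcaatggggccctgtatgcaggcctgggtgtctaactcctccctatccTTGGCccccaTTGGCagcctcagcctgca
The motifs, searched on both strands, were the AP-1 site TGANTCA, the C/EBP-ATF response element TGATGNAA bound by Atf4, the NFI motif TTGGC, which is one side of a palindromic site, and the STAT site TTCNNNGAA. The Gfap window, whose RefSeq start lies inside the longer mm10 gene model, held none of these. Gja1 held 1 AP-1 site that began 19 bases before the start, as did 6.749% of 32851 promoters of the same length, and S100b held 3 NFI motifs that began 203, 29 and 19 bases before it, as did 41.51% of promoters at least once. The response element was in none of the 11 windows found for 9 of the 10 genes and in 3.452% of all promoters, and the STAT site, in 7.02% of all, was in those of Aldoc and Slc1a3. These letters are matches and not shown to be bound, and the 3 called genes shared no motif among those searched.

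Gfap (ENSMUSG00000020932.14, chromosome 11, 102887336 to 102900912, minus strand, mm10) encodes the intermediate filament of astrocytes. It stood at 89.5, 93.9, 85.2 and 81.2 CPM in WT libraries 1 to 4 and at 108, 98.7, 99.1 and 103 CPM in KO libraries 5 to 8. All KO libraries lay above all WT libraries, with the nearest at 93.9 and 98.7 CPM. The change was 0.23 ± 0.05 (log2, SE, 95% confidence interval 0.12 to 0.33, adjusted p = 0.0177), on the scale of the fit. With neighbouring libraries summed, the change was 0.23 and the adjusted p 0.128, and with the estimated correlation the adjusted p was 0.0312. Vimentin (Vim), the filament that GFAP pairs with in Bergmann glia and reactive astrocytes, had means of 104 CPM in WT and 119 CPM in KO, a log2 change of 0.20 (adjusted p = 0.0129, 0.0254 with the estimated correlation and 0.123 with neighbours summed).

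S100b (ENSMUSG00000033208.7, chromosome 10, 76253853 to 76261159, plus strand) encodes a calcium-binding protein of astrocytes, which oligodendrocytes also make. Its WT libraries held 213, 223, 213 and 215 CPM and its KO libraries 232, 235, 239 and 234 CPM, so that the groups did not overlap. The change was 0.14 ± 0.03 (adjusted p = 0.0256), with the smallest spread between KO libraries of all 10 genes, an SD of 1.26% of the mean. The adjusted p was 0.186 with neighbours summed and 0.0476 with the estimated correlation. S100a1, its closest relative in the list of paralogs, did not pass (0.07 ± 0.07).

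Gja1 (ENSMUSG00000050953.10, chromosome 10, 56377330 to 56402513, plus strand) encodes connexin 43, the main gap junction protein between astrocytes. It was measured at 192, 194, 182 and 180 CPM in WT and at 206, 211, 198 and 205 CPM in KO. The groups did not overlap, with the nearest libraries at 194 and 198 CPM. The change was 0.15 ± 0.04 (adjusted p = 0.0316), and the adjusted p was 0.199 with neighbours summed and 0.0510 with the estimated correlation. Of the other astrocytic connexins, Gjb6 (connexin 30) changed by -0.08 ± 0.05 and Gjb2 (connexin 26) by 0.06 ± 0.09, and neither passed.

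**Figure D1:**
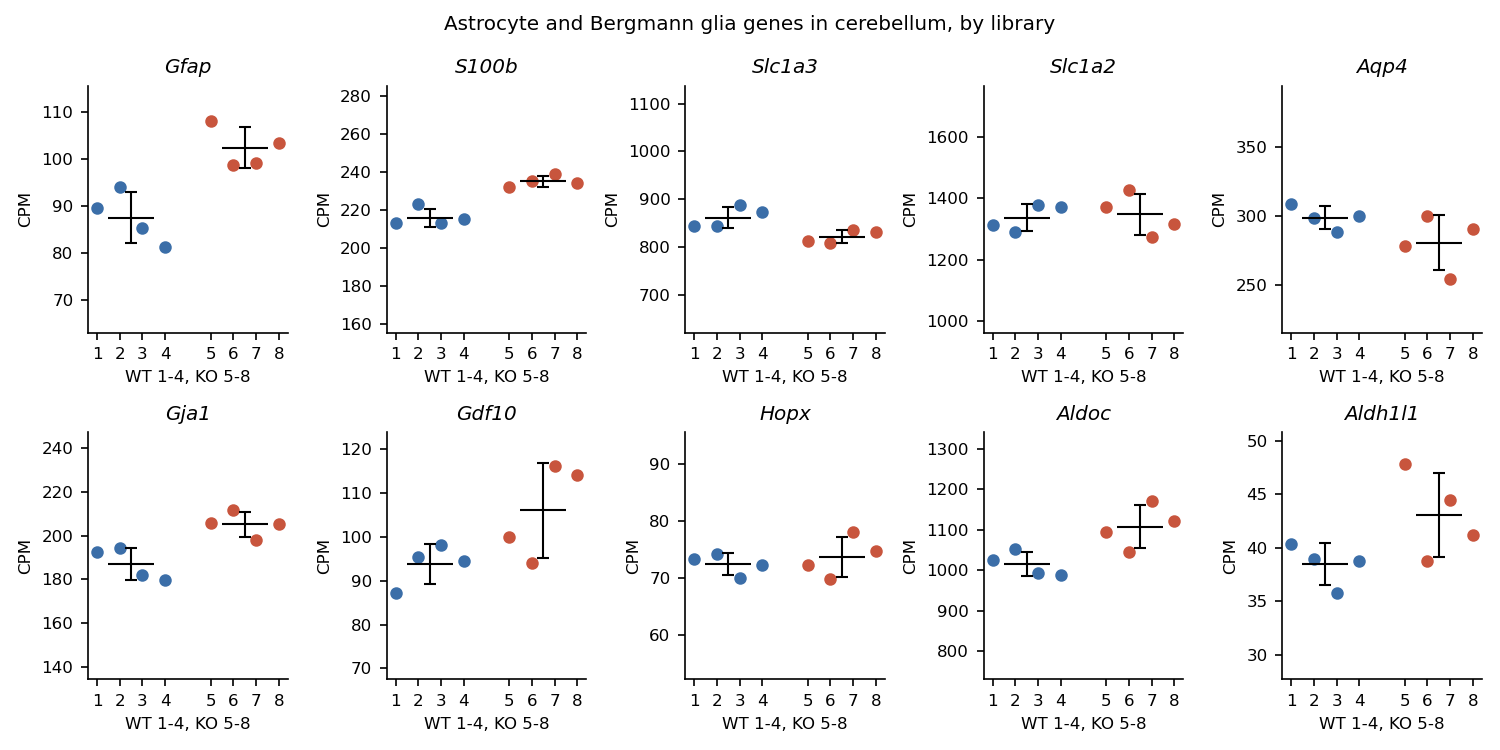
CPM of the 10 astrocyte and Bergmann glia genes in each cerebellum library, WT 1 to 4 in blue and KO 5 to 8 in red, with the mean and SD of each group (n = 4) in black; every vertical axis spans the same percentage range around its WT mean and does not start at 0. Gfap, S100b and Gja1 have all KO points above all WT points, and Slc1a3 has all KO points below.

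Neither glutamate transporter passed the test. Slc1a3 (GLAST, chromosome 15, 8634124 to 8710764, minus strand), the main transporter of Bergmann glia, held 843, 843, 887 and 873 CPM in WT and 811, 807, 835 and 830 CPM in KO. Every KO library was below every WT library, but the change of -0.06 ± 0.03 did not pass the test (adjusted p = 0.228, 95% confidence interval -0.12 to 0.00). Slc1a2 (GLT-1, chromosome 2, 102658659 to 102790784, plus strand) stood at 1312, 1288, 1377 and 1370 CPM in WT and at 1372, 1426, 1274 and 1316 CPM in KO, with overlapping groups. Its change was 0.07 ± 0.03 (adjusted p = 0.244) with quantile normalization and 0.00 with TMM, edgeR or DESeq2, where the sign was negative. An antisense gene covers 1.44% of the exonic bases of Slc1a2.

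Aqp4, the water channel of astrocyte endfeet, was at 309, 299, 288 and 299.5 CPM in the WT libraries and at 278, 299.9, 254 and 290.1 CPM in the KO libraries. The groups overlapped, and the change of -0.09 ± 0.05 did not pass (adjusted p = 0.275). The estimates of Gja1 and Aqp4, which are both dense in astrocyte endfeet, had opposite signs. Their ratio of CPM was 0.626 ± 0.0205 (SD, n = 4) in WT and 0.733 ± 0.0346 in KO, with the WT libraries up to 0.650 and the KO libraries from 0.705. The ratio of Gfap to Slc1a3 was 0.102 ± 0.00863 in WT and 0.125 ± 0.00616 in KO. It does not overlap because each of these genes alone separates the genotypes, in opposite directions, so it adds no further result. The ratio of Slc1a2 to Slc1a3 was 1.55 ± 0.0169 in WT and 1.64 ± 0.107 in KO, and its libraries overlapped (1.53 to 1.57 and 1.53 to 1.77). These ratios were chosen with the changes of their genes known, are descriptions, and carry no test.

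Of the Bergmann glia genes, neither passed. Gdf10, a secreted growth factor of the bone morphogenetic protein family that is restricted to Bergmann glia in the cerebellum (chromosome 14, 33923587 to 33937983, plus strand), stood at 87.2, 95.3, 98.1 and 94.5 CPM in WT and at 99.97, 94.0, 116 and 114 CPM in KO. KO libraries 5, 7 and 8 were above all WT libraries, library 5 only just, and library 6 was within the WT range. The change was 0.18 ± 0.06 (adjusted p = 0.112). Hopx, a homeodomain-only protein of Bergmann glia (chromosome 5, 77086988 to 77115121, minus strand), held 69.9 to 74.2 CPM in WT and 69.8 to 78.1 CPM in KO, a change of 0.02 ± 0.04. Its antisense gene Hopxos covers 27.18% of its exonic bases, and the reads of the pair cannot be told apart if strand was not used in counting.

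Aldoc and Aldh1l1 are enzymes. Aldoc, aldolase C or zebrin II, is made by astrocytes and by bands of Purkinje cells (chromosome 11, 78322968 to 78327781, plus strand), and stood at 1026, 1053, 993 and 987 CPM in WT and at 1094, 1043, 1170 and 1121 CPM in KO. KO libraries 5, 7 and 8 were above the WT range and library 6 was within it, for a change of 0.13 ± 0.04 (adjusted p = 0.0850). Aldh1l1, a folate enzyme and a marker of the whole astrocyte class (chromosome 6, 90486427 to 90600203, plus strand), held 40.4, 39.0, 35.8 and 38.8 CPM in WT and 47.8, 38.8, 44.5 and 41.2 CPM in KO, a change of 0.15 ± 0.07 (adjusted p = 0.192). An antisense gene covers 11.05% of its exonic bases.

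Counted over the 10 genes, 3 were called higher and 0 lower, where 3.93% of the 16225 genes tested were called higher and 2.51% lower. Because the 10 were chosen with earlier results of these data known, the shares and medians here are descriptions and carry no test. An unadjusted p under 0.05 was found for 6 of the 10 and for 3929 of all genes tested. All KO libraries exceeded all WT libraries for 3 of the 10 and for 8.79% of all genes, and fell below them for 1 of the 10 and for 4.99% of all genes. The median change was 0.13, against -0.01 over all genes, and it was between 0.11 and 0.13 under 5 scalings that left the median of all genes between -0.01 and 0.01. A median of this size was not particular to the 10 genes. It was 0.14 for microglia, 0.14 for oligodendrocyte precursor, 0.12 for oligodendrocyte and 0.08 for vascular genes. Granule cell genes had a median of 0.01 and Purkinje cell genes of -0.02. Summed over the 10 genes, the level was 4185 to 4229 CPM in WT and 4307 to 4330 CPM in KO. The WT and KO sums did not overlap, but the sum is mostly Slc1a2, Aldoc and Slc1a3.

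With neighbouring libraries summed, 0.296% of genes were called in the cerebellum (48 genes), and none of the 10 was. With the estimated correlation, 3.69% of genes were called, with Gfap and S100b among them. Gfap was called with edgeR (0.21, adjusted p = 0.0252), DESeq2 (adjusted p = 0.00211) and limma-voom with TMM (adjusted p = 0.0202). Gja1 and S100b were called with DESeq2 (adjusted p = 0.0310 and 0.0233) but not with edgeR (0.0914 and 0.0931) or with TMM (0.0611 and 0.0549). Without the filter on low values Gja1 did not pass (adjusted p = 0.0514). In 1 fit over all 24 libraries none was called, with adjusted p of 0.119 for Gfap, 0.565 for Gja1 and 0.936 for S100b. Leaving out 1 library in turn gave 0 to 6 called of the 10. None was called without WT library 3 or 4 or without KO library 5 or 8, 1 without WT library 1, 2 without KO library 7, 3 without WT library 2, and 6 without KO library 6, when Gdf10, Aldoc and Aldh1l1 also passed. In those fits the change of Gfap was between 0.19 and 0.26, of Gja1 between 0.13 and 0.17 and of S100b between 0.13 and 0.15. Their adjusted p went up to 0.0629, 0.0987 and 0.0850 respectively.

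**Figure D2:**
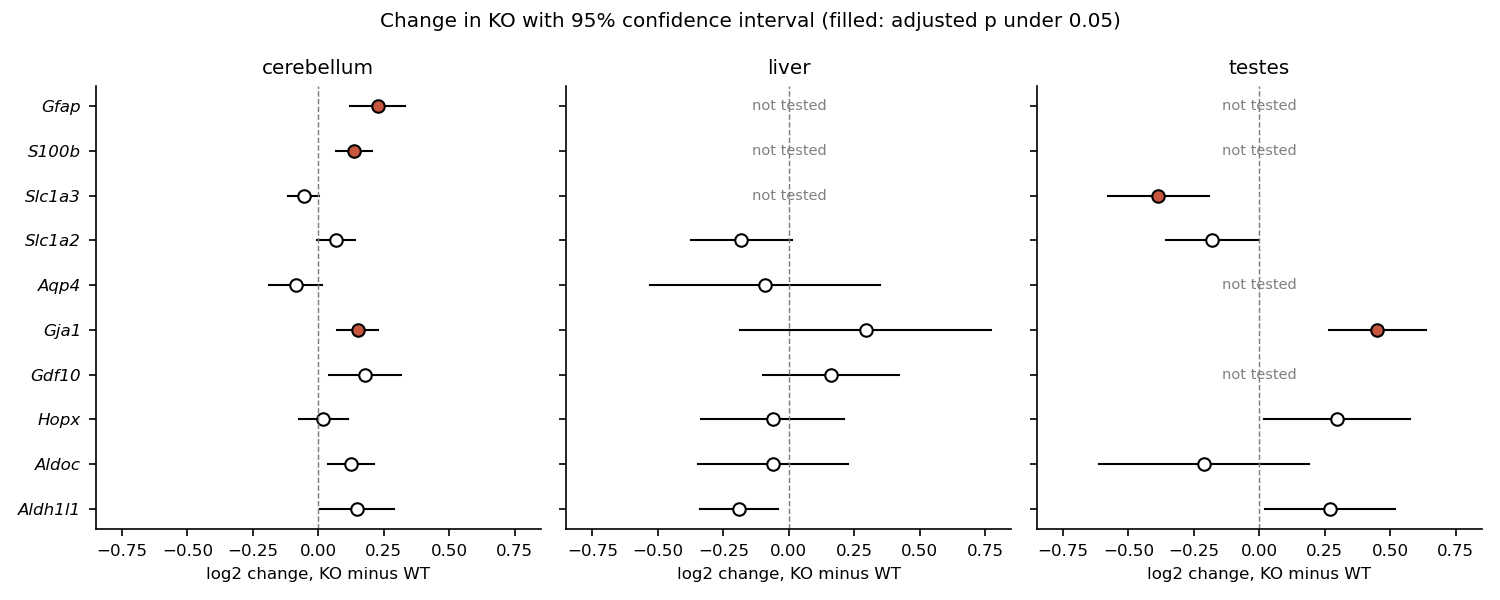
Log2 change in KO against WT of each gene in cerebellum, liver and testes, with the 95% confidence interval as a line (n = 4 libraries per genotype) and filled points for adjusted p under 0.05. Gfap, S100b and Gja1 are called in cerebellum, none in liver, and Gja1 and Slc1a3 in testes in opposite directions.

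In a piece of tissue, more or fewer cells of a type and more or less RNA per cell cannot be told apart, and the marker genes of several other cell types also differed between genotypes. Forebrain genes (12 genes, among them Nrgn, neurogranin) summed to 10.5 to 12.3 CPM in WT and to 27.5 to 53.5 CPM in KO. Most of this rise was Nrgn, with means of 2.04 CPM in WT and 23.6 CPM in KO. Midbrain genes (12 genes) summed to 9.09 to 14.4 CPM in WT and to 15.3 to 18.0 CPM in KO. A large share of the midbrain sum was Th, with means of 5.85 CPM in WT and 8.20 CPM in KO. Of the 12 in each list, 6 forebrain and 3 midbrain genes passed the filter, 3 and 2 of them were called higher and none lower, and 3 of the midbrain genes were at 0 in all libraries. The forebrain calls were Nrgn (3.42), Ddn (dendrin, 1.68) and Bcl11b (a transcription factor, 1.52), and all 3 passed with the estimated correlation. Of the 2 midbrain calls, Tal1 (a transcription factor, 1.14 ± 0.24, adjusted p = 0.0160) passed with the estimated correlation (0.0312) and was lost only without WT library 1 or 4 among the 8 fits that left out 1 library. The other, Th (tyrosine hydroxylase, 0.46), did not pass with the estimated correlation (adjusted p = 0.0549) and passed only without WT library 2 or KO library 6. Granule cell genes summed to 8068 to 8365 CPM in WT and to 7501 to 8055 CPM in KO, with 4 of 13 called lower and 0 higher. Of the 13, 7 had changes above 0 and the median was 0.01, and the called ones with the lowest adjusted p were Zic1 (-0.21 ± 0.03), Gabra6 (-0.26 ± 0.04) and Neurod1 (-0.22 ± 0.04). Oligodendrocyte genes summed to 3181, 3235, 2729 and 2713 CPM in WT and to 3334, 3261, 3124 and 3135 CPM in KO, with 2 of 12 called higher, Mag (0.27 ± 0.07) and Cnp (0.19 ± 0.05). With the estimated correlation Mag passed (adjusted p = 0.0468) and Cnp did not (0.0562). Both lost their call without WT library 3 or 4 or KO library 5, 7 or 8, and Cnp also without WT library 1, and with the midbrain sum as a covariate they changed by 0.03 and 0.05. Oligodendrocyte precursor genes summed to 105 to 122 CPM in WT and to 125 to 136 CPM in KO, microglia genes to 91.0 to 105 CPM and to 106 to 112 CPM, and vascular genes to 371 to 379 CPM and to 385 to 418 CPM, with 0 of 6, 0 of 11 and 1 of 14 tested genes called higher. The vascular call was Slco1a4, an organic anion transporter (0.20, adjusted p = 0.0486), which did not pass with the estimated correlation (adjusted p = 0.0863) and, among the fits that left out 1 library, passed only without KO library 6 or 7. Blood genes summed to 7.76 to 8.67 CPM in WT and to 7.01, 6.73, 4.09 and 3.74 CPM in KO, with 1 of 3 tested genes called lower (Alas2, -0.58, adjusted p = 0.0391, and 0.0619 with the estimated correlation). Alas2 passed in the fits without KO library 5 or 6 and in none of the other 6 that left out 1 library. Purkinje cell genes summed to 6967 to 7477 CPM in WT and to 7146 to 7538 CPM in KO, with overlap. Of the 12, 6 had changes above 0 and the median was -0.02. The 2 called higher were Pcp2 (0.24 ± 0.06) and Slc1a6, neither of which passed with the estimated correlation (adjusted p = 0.0533 and 0.0638), and 0 were called lower. Exons of a gene on the opposite strand cover 51.48% of Pcp2, and those of another 12.94% of Alas2. WT libraries 3 and 4, which had the lowest oligodendrocyte sums, also had the lowest Gfap and Gja1 levels.

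The changes of the 3 called genes were refitted with some of those sums as covariates. With the log2 midbrain sum in the fit, Gfap changed by 0.11 ± 0.07, S100b by 0.09 ± 0.05 and Gja1 by 0.07 ± 0.05, and none passed (adjusted p = 0.561, 0.489 and 0.645). The midbrain sums of WT and KO did not overlap, and the sum includes Tal1 and Th, both called higher in KO. This covariate therefore takes up part of the genotype difference itself, and its part in the changes cannot be told apart from genotype. Over all genes, 158 were called with it, against 1045 without. With the oligodendrocyte sum in the fit, the changes were 0.16, 0.12 and 0.10 and the adjusted p 0.0967, 0.113 and 0.166. With the choroid plexus sum in the fit they were 0.24, 0.14 and 0.15 (adjusted p = 0.00673, 0.0148 and 0.0177), and Aldoc passed too. Among the 2 WT and 2 KO libraries with the least choroid plexus signal, Gfap changed by 0.31 ± 0.07 (adjusted p = 0.0275), Gja1 by 0.23 ± 0.05 (adjusted p = 0.0380) and S100b by 0.14 ± 0.05 (adjusted p = 0.183). These are WT libraries 3 and 4, the lowest WT libraries for Gfap and Gja1, against KO libraries 5 and 6. They are 1 neighbouring pair per genotype, so that if neighbours share an animal there is 1 sample a group and no replication behind these p-values. The part of the forebrain, precursor, microglia, vascular and blood signals in these changes was not tested.

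**Figure D3:**
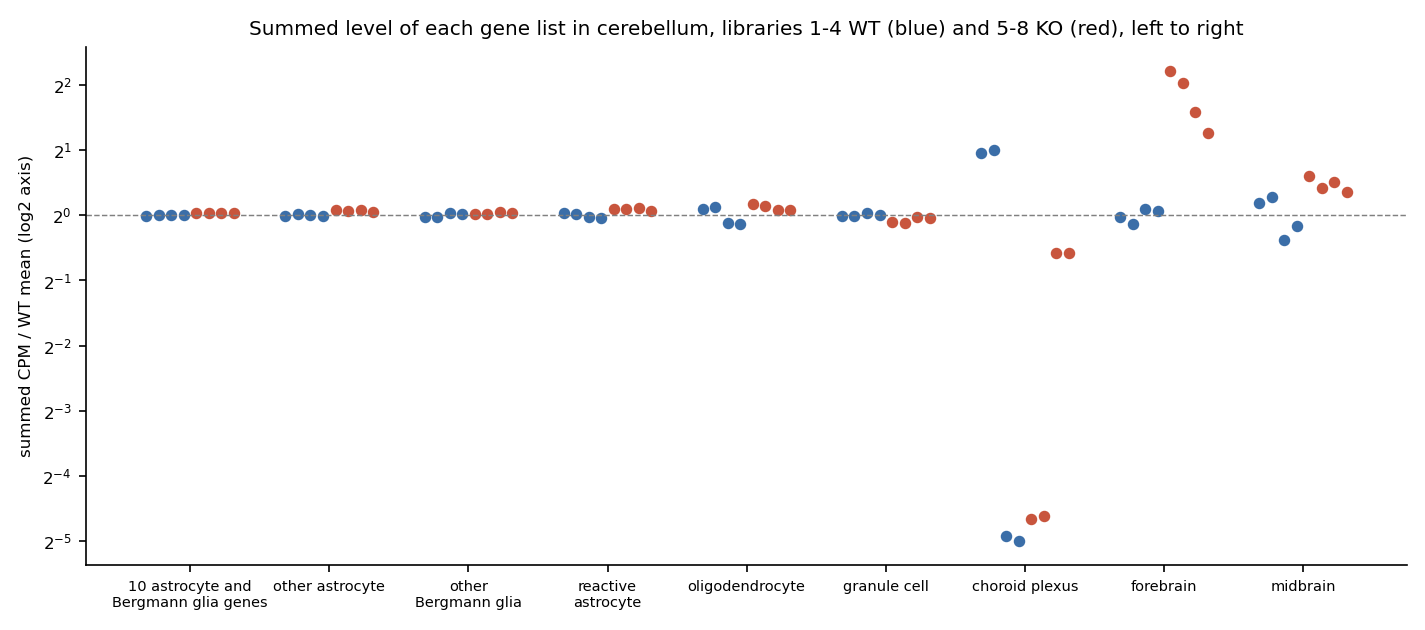
Summed CPM of each gene list in each cerebellum library, divided by the mean of the WT libraries, on a log2 axis, with libraries 1 to 8 from left to right (WT blue, KO red). The astrocyte and Bergmann glia sums stay near 1, while choroid plexus sums differ between neighbouring pairs of libraries and forebrain sums are higher in all KO libraries.

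Other astrocyte genes moved in both directions. Of 37 further genes of astrocytes, all tested, 5 were called higher and 3 lower, with a median change of 0.04. By adjusted p, the leading ones were Itih3 (43.4 to 34.1 CPM, -0.37 ± 0.05, adjusted p = 0.00181), which codes for a chain of the inter-alpha-trypsin inhibitor, Hepacam (85.4 to 96.3 CPM, 0.18 ± 0.03, adjusted p = 0.0110), a cell adhesion protein of endfeet, and Slc6a11 (45.2 to 72.9 CPM, 0.66 ± 0.13, adjusted p = 0.0123), the GABA transporter GAT-3. Slc6a11 ranged from 60.6 to 88.5 CPM in KO and from 38.4 to 52.4 CPM in WT. The summed level of the 37 genes was 8468 to 8624 CPM in WT and 8868 to 9033 CPM in KO. Among 12 further Bergmann glia genes, 2 were called higher and 0 lower, A2m (alpha-2-macroglobulin, 87.7 to 108 CPM, 0.30 ± 0.04, adjusted p = 0.00226) and Vim, with a median of 0.10.

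Of 34 genes that are induced in reactive astrocytes, 23 passed the filter on low values, 2 were called higher (Vim and S100a10) and 0 lower. Their median change was -0.01, as over all genes, while their summed level, of which Vim is a large share, was 285 to 299 CPM in WT and 306 to 315 CPM in KO. S100a10, an annexin partner, had means of 8.99 CPM in WT and 11.9 CPM in KO (0.41 ± 0.11, adjusted p = 0.0452), but did not pass with the estimated correlation (0.0786) or in 6 of the 8 fits that left out 1 library. Genes of the glutamate cycle gave 3 called higher of 14 tested, with a median of 0.09. They were Slc1a4, an exchanger of serine and other neutral amino acids in astrocytes (19.3 to 29.1 CPM, 0.57 ± 0.06, adjusted p = 0.000372), the neuronal vesicular transporter Slc17a6 (10.7 to 26.7 CPM, 1.22 ± 0.23) and the Purkinje cell transporter Slc1a6 (107 to 120 CPM, 0.18 ± 0.05). Slc1a4 is the relative of Slc1a3 and Slc1a2 with the lowest adjusted p, while Slc1a1 (0.14 ± 0.05) and Slc1a5 (0.39 ± 0.24) did not pass and Slc1a7 was under the filter.

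Genes of folate metabolism, the pathway of Aldh1l1, gave 3 called higher of 9 and 0 lower, with a median of 0.03. Mthfd2 (5.11 to 8.63 CPM, 0.72 ± 0.10, adjusted p = 0.00135), Aldh1l2 (40.1 to 47.8 CPM, 0.24 ± 0.05, adjusted p = 0.0103) and Shmt2 (24.2 to 29.4 CPM, 0.26 ± 0.06, adjusted p = 0.0331) encode the mitochondrial arm, and Aldh1l2 is the mitochondrial counterpart of Aldh1l1. Exons of a neighbouring gene on the opposite strand cover 14.07% of Aldh1l2. Water, potassium and endfoot genes gave 2 called higher of 13 (Hepacam and Agrn, agrin, 0.16 ± 0.04), gap junction genes 0 of 11, genes of glial transcription 1 called lower of 13 (Rbpj, the Notch effector, -0.19 ± 0.05), and genes of Gdf10 signalling 0 of 9. For Gdf10 signalling the median was -0.07. When 1 library was left out in turn, Itih3, Hepacam, Slc6a11, A2m, Vim, Slc1a4, Slc17a6, Mthfd2 and Aldh1l2 passed in all 8 fits. In 13 other settings, Slc1a4 passed in all, while the call was lost in 5 for Vim, 4 for Hepacam, 4 for Aldh1l2, 3 for A2m, 3 for Mthfd2 and 2 each for Itih3, Slc6a11 and Slc17a6. Over these settings Slc6a11 ranged from 0.28 to 1.12 and Slc17a6 from 0.74 to 1.93, with the lowest values from the midbrain covariate. With that covariate, 3 of the 27 named genes of other lists were still called (Slc1a4, Itih3 and Zic1). S100a10, Slc1a6, Agrn and Rbpj lost their call in 6 of the 8 fits that left out 1 library and Shmt2 in 7, with a highest adjusted p of 0.139, 0.117, 0.142, 0.101 and 0.0985. For all 5 these included WT libraries 1 and 3 and KO libraries 5, 7 and 8, with WT library 2 for S100a10, WT library 4 for Slc1a6, Agrn and Rbpj, and both for Shmt2. None of the 5 passed with the estimated correlation (adjusted p = 0.0603 to 0.0844).

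**Figure D4:**
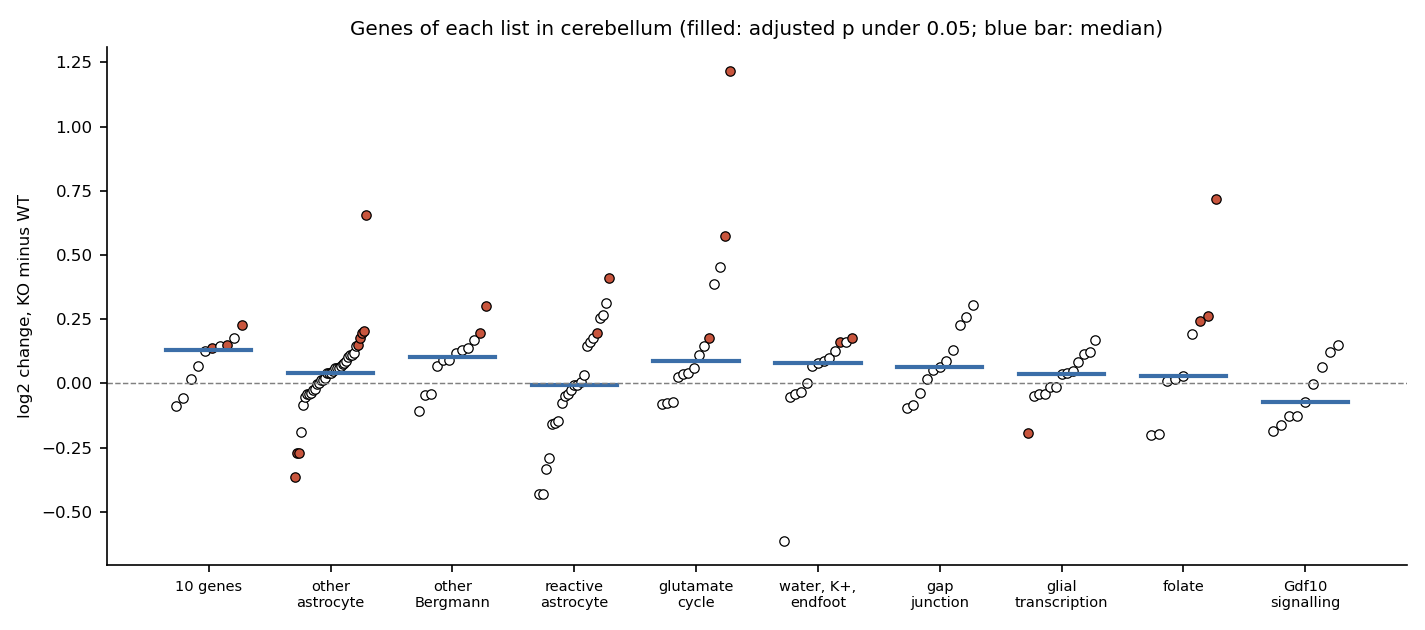
Log2 change in the KO cerebellum of every tested gene in 10 lists, with called genes filled and the median of each list as a blue bar. The 10 astrocyte and Bergmann glia genes have a median of 0.13, other astrocyte genes 0.04, other Bergmann glia genes 0.10 and reactive astrocyte genes -0.01.

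Levels of different genes were compared per kilobase of the longest principal transcript. In WT cerebellum the order was Aldoc (364 ± 10.9 CPM per kb, SD, n = 4), Slc1a3 (207 ± 5.36), S100b (146 ± 3.19), Slc1a2 (115 ± 3.75), Aqp4 (59.1 ± 1.63), Gja1 (58.8 ± 2.26), Hopx (57.4 ± 1.47), Gfap (33.0 ± 2.07), Gdf10 (18.0 ± 0.890) and Aldh1l1 (9.21 ± 0.464). Aqp4, Gja1 and Hopx overlapped in their libraries and cannot be ranked. The order depends on the length used: over all annotated exons, which are much longer for Slc1a3 (8537 against 4163 bases) and Gja1 (10257 against 3182 bases), Slc1a3 was at 101 CPM per kb, below S100b and beside Slc1a2 at 102, and Gja1 at 18.2, beside Gfap at 20.7 and Gdf10 at 18.0.

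Set against the other tissues, 9 of the 10 were called higher in WT cerebellum than in WT liver, where 42.5% of genes were, and 9 of the 10 higher than in WT testes, where 38.5% of genes were. Aldh1l1 was the exception in both. It stood at 1090 to 1288 CPM in WT liver, 35.8 to 40.4 CPM in WT cerebellum and 26.3 to 29.5 CPM in WT testes. The log2 difference of cerebellum minus liver was -6.18 ± 0.09 (adjusted p = 4.33e-24), and that of cerebellum minus testes was 0.21 ± 0.12 and did not pass (adjusted p = 0.0999). Gja1 was nearest to its cerebellar level in the testes (61.8 to 72.1 CPM), where Sertoli cells make it, and Slc1a2 was at 132 to 157 CPM in WT liver. S100b had 0 to 4 counts in each liver library and Aqp4 0 to 3 in each testes library, so no fold is given for them. A count of 0 allows up to 3 counts, which is 0.0792 to 0.165 CPM in the liver libraries and 0.0819 to 0.110 CPM in the testes libraries, for counting error only.

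**Figure D5:**
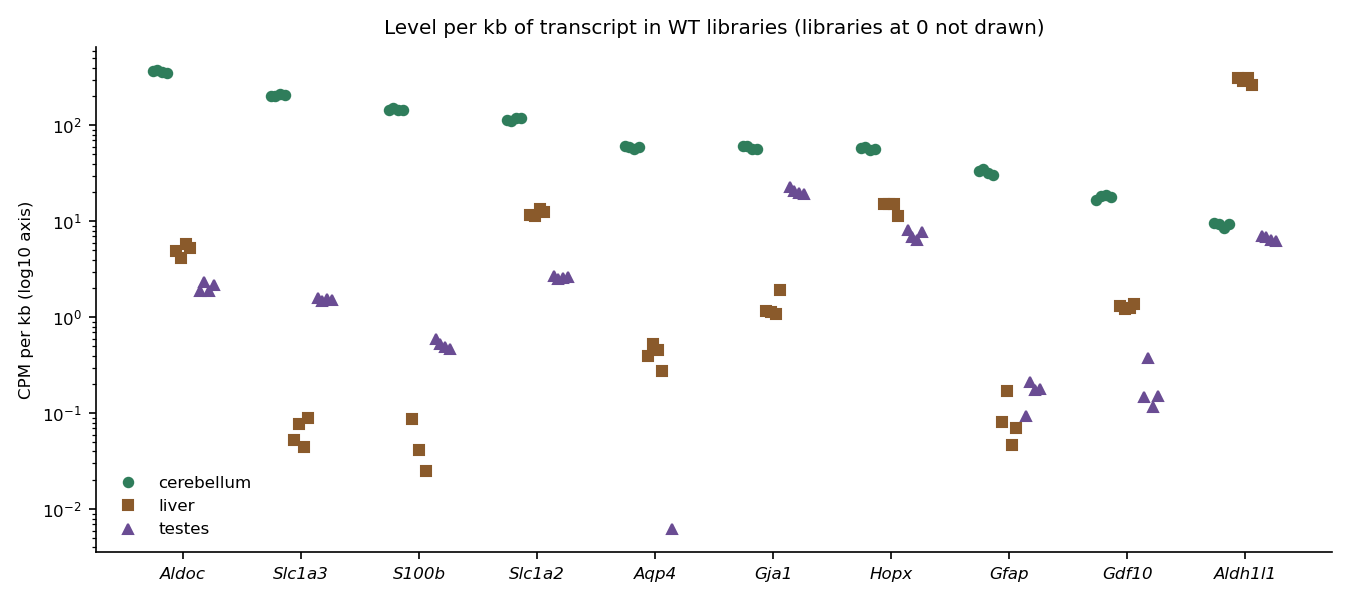
CPM per kilobase of transcript of each gene in the 4 WT libraries of cerebellum (circles), liver (squares) and testes (triangles), on a log10 axis, with libraries at 0 not drawn. All genes except Aldh1l1 are highest in cerebellum, and Aldh1l1 is highest in liver.

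In liver, 7 of the 10 passed the filter on low values, Gfap, Slc1a3 and S100b being below it, and none was called with limma-voom, where 5.91% of genes were called in either direction. One of the 7 had an unadjusted p under 0.05, Aldh1l1, which is abundant in hepatocytes. It stood at 1288, 1224, 1288 and 1090 CPM in WT and at 1073, 1063, 1058 and 1050.5 CPM in KO, with every KO library below every WT library. The change was -0.19 ± 0.07 (adjusted p = 0.125 with limma-voom), and it passed with DESeq2 (adjusted p = 0.0187) and with sample quality weights (adjusted p = 0.0437). Slc1a2 was at 134, 132, 157 and 146 CPM in WT and at 115, 120, 129 and 131 CPM in KO, again without overlap, with a change of -0.18 ± 0.09 (adjusted p = 0.240). Of the other tested genes, Gja1 changed by 0.29 ± 0.22, Gdf10 by 0.16 ± 0.12, Aqp4 by -0.09 ± 0.20, Hopx by -0.06 ± 0.12 and Aldoc by -0.06 ± 0.13, and none passed. Hepatocyte genes summed to 44258 to 57139 CPM in WT and to 54336 to 79697 CPM in KO, and 2 of 6 were called higher, Apoa1 (0.32) and Fgb (0.27). Of 5 periportal genes 2 were called lower, Cyp2f2 (-0.37) and Sds (-0.62), of 8 pericentral genes Rhbg was called lower (-0.85) and Axin2 higher (0.41), and of 7 stellate cell genes Hgf was called higher (0.62). Exons of another gene on the same strand cover 61.44% of the exonic bases of Rhbg, which strand cannot resolve. Exons of genes on the opposite strand cover 21.25% and 8.32% of Sds, and 13.53% of Cyp2f2. With the estimated correlation Sds and Hgf passed (adjusted p = 0.0344 and 0.0425) and Cyp2f2 (0.0551), Rhbg (0.0641), Apoa1 (0.110), Fgb (0.148) and Axin2 (0.154) did not, and with neighbours summed none did. Cyp2f2, Sds and Hgf passed in all 8 fits that left out 1 library, and the call was lost in 4 for Apoa1 (without WT library 1 or 2 or KO library 7 or 8), 4 for Rhbg (without WT library 1 or 3 or KO library 7 or 8), 6 for Fgb (all but those without WT library 4 or KO library 6) and 7 for Axin2 (all but that without WT library 4). The part of these shifts in the levels of Aldh1l1 and Slc1a2 was not tested. Such a separation below WT was found for 5.31% of all genes in liver. With neighbouring libraries summed, 0.078% of genes were called in liver, and with the estimated correlation 1.68%, in both cases with none of the 7.

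In testes, 6 of the 10 passed the filter and 2 were called. The count was 1 with the estimated correlation (Gja1, with Slc1a3 at adjusted p = 0.0533) and 0 with neighbours summed. Gja1 stood at 72.1, 66.1, 62.9 and 61.8 CPM in WT and at 87.1, 85.0, 109 and 86.1 CPM in KO, a change of 0.45 ± 0.08 (adjusted p = 0.00629), with every KO library above every WT library. Slc1a3 was at 6.67, 6.11, 6.52 and 6.28 CPM in WT and at 5.02, 5.39, 5.76 and 5.05 CPM in KO, a change of -0.39 ± 0.09 (adjusted p = 0.0131), with every KO library below. Both passed in all 8 fits that left out 1 library, with adjusted p up to 0.0297 and 0.0491. Calls were common in this tissue, 9.74% of genes being higher and 10.7% lower. All KO libraries were above all WT libraries for 18.8% of genes and for 2 of the 6, Gja1 and Aldh1l1, and below for 9.8% of genes and for Slc1a3. The remaining tested genes did not pass, with changes of 0.30 ± 0.13 for Hopx, 0.27 ± 0.11 for Aldh1l1, -0.18 ± 0.08 for Slc1a2 and -0.21 ± 0.18 for Aldoc.

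Sertoli cell genes, of which 6 of 7 were called higher, summed to 1007 to 1179 CPM in WT testes and to 1287 to 1853 CPM in KO testes, for example Wt1 (0.55 ± 0.10), Rhox5 (0.69 ± 0.13) and Sox9 (0.55 ± 0.13). These 3 passed with the estimated correlation (adjusted p = 0.0157, 0.0334 and 0.0280) and not with neighbours summed. Germ cell genes summed to 6714 to 6958 CPM in WT and to 4625 to 6313 CPM in KO, with 1 of 6 called higher (Dazl, 0.31) and 2 lower (Prm1, -0.27, and Prm2, -0.28). With the estimated correlation Dazl passed (adjusted p = 0.0464) and the 2 protamine genes did not (0.0573 and 0.0557), and with neighbours summed none did. Leaving out 1 library ended the call of Dazl without WT library 3 or 4, of both protamine genes without WT library 3 or 4 or KO library 7 or 8, and of Prm2 also without WT library 2. The part of these shifts in the levels of Gja1 and Slc1a3 was not tested. With neighbours summed, 0.00517% of genes were called in testes (1 gene), and the adjusted p was 0.150 for Gja1 and 0.184 for Slc1a3. With the estimated correlation 8.92% of genes were called, with Gja1 among them (adjusted p = 0.0250) and Slc1a3 at 0.0533. S100b, under the filter, held 0.691 to 0.872 CPM in WT and 0.992 to 1.39 CPM in KO.

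Whether the KO effect differed between tissues was tested in 1 fit over all 24 libraries. Between cerebellum and liver, none of the 7 genes tested in both differed, where 7.52% of genes did. The unadjusted p was under 0.05 for Aldh1l1 alone, whose KO effect in cerebellum minus that in liver was 0.34 ± 0.11 (adjusted p = 0.0575). Within tissues its change was 0.15 in cerebellum and -0.19 in liver, neither of them called. The difference passed without WT liver library 4 or KO cerebellum library 6 (lowest adjusted p = 0.0367). Between cerebellum and testes, 1 of 6 differed, where 13.6% of genes did. For Slc1a3 the KO effect in cerebellum minus that in testes was 0.33 ± 0.10 (adjusted p = 0.0359). With edgeR the adjusted p was 0.0543, and with quantile normalization, as used within tissues, the difference was 0.52 ± 0.12 (adjusted p = 0.00539). With TMM it passed in 7 of 16 fits that left out 1 library, and not without WT library 1 or 2 or KO library 7 or 8 of cerebellum, or WT library 1, 3 or 4 or KO library 5 or 8 of testes (highest adjusted p = 0.0764). For Gja1, called higher in both tissues, the difference of the effects was -0.22 ± 0.10 and did not pass (adjusted p = 0.144).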

How the data were processed

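RNA-seq was analysed from 24 mouse libraries, 4 for each genotype in cerebellum, liver and testes (Illumina Stranded Total RNA Prep with Ribo-Zero Plus, paired-end). The authors aligned reads with STAR and deposited RSEM expected counts for 55450 genes (mm10), of which 12.3 to 16.6% of values above 0 in a library were not whole, and they were rounded only for DESeq2 and edgeR. Whether strand was used in counting is not given in the sources used here. Genes with at least 1 CPM in at least 4 of a tissue's 8 libraries were tested with limma-voom after quantile normalization, and tissues were compared in 1 fit with TMM over 24 libraries. Tools were R 4.3.3, limma 3.58.1, edgeR 4.0.16 and DESeq2 1.42.0, and the fits were tested on simulated counts. There the share of changed genes recovered was lowest for liver and just under the minimum first set, which was then lowered, so that genes that changed in liver could be missed. Alternatives covered edgeR, DESeq2, TMM, filters, weights, covariates, neighbouring libraries and leaving out each library. Replicates are labelled only by number. If they are not separate animals, p-values measure only the spread between these samples. The genes and lists were chosen with earlier results of these data known. Besides the 10 genes, those named were the up to 3 genes of each list called with the lowest adjusted p, and some of the closest family members, and the rule's further gene for lists with no call was left out. RefSeq promoters (GRCm38.p6) were matched by symbol for 9 of the 10 genes. Confidence intervals of changes come from the spread between libraries in limma, and the floors for a count of 0 cover counting error only.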

Additional observations from a re-analysis of the deposited data

Results flagged for a closer look

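In 52 groups of 4 libraries with at least 40 counts, 4 held a library far from the other 3. Chance gives about 1 such group in 20, so a few among 52 are to be expected, and these 4 are not shown to be unusual. Gja1 was at 109 CPM in 1 KO testes library against 85.0 to 87.1 CPM in the others, and at 6.08 CPM in 1 WT liver library against 3.42 to 3.69 CPM. Gdf10 was at 1.96 CPM in 1 WT testes library against 0.602 to 0.786 CPM, and Hopx was at 14.2 CPM in 1 WT liver library against 19.0 to 19.1 CPM.
The KO effect on Slc1a3 differed between tissues by the test of the difference itself, by 0.33 ± 0.10 (cerebellum minus testes, log2, adjusted p = 0.0359), the change being -0.06 in cerebellum and -0.39 in testes. The call was lost in 9 of 16 fits that left out 1 library and with edgeR (adjusted p = 0.0543), the difference was 0.52 (adjusted p = 0.00539) with quantile normalization, and the change in testes did not pass with the estimated correlation of neighbouring libraries (adjusted p = 0.0533). Every KO library lay below every WT library in both tissues.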

How the results depend on the processing

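Of the 10 genes, 3 were called in cerebellum, and this became 2 without the filter or with the correlation of neighbours, 1 with edgeR or TMM, 5 with sample quality weights, and 0 in one fit over all 24 libraries, with the midbrain or oligodendrocyte sum as covariate or with neighbours summed. All genes called in cerebellum (1045) became 628 without the filter, 1757 with weights, 234 in one fit, 158, 1729 and 493 with the midbrain, choroid plexus and oligodendrocyte covariates, 402 in the libraries low in choroid plexus, 48 with neighbours summed and 599 with their correlation. In liver 757 became 1408 (DESeq2), 492 (no filter), 1705 (weights), 1685 (one fit), 10 (summed) and 215 (correlation), and 1 gene of the 10 was called in place of 0 with DESeq2 and with weights. In testes 3957 became 6107 (weights), 1 (summed) and 1724 (correlation), and the 2 genes of the 10 became 4, 0 and 1. With edgeR, 0 genes in place of 1 differed in KO effect between cerebellum and testes. The fits with covariates, low choroid plexus libraries or neighbours other than the midbrain one were chosen after seeing the data. The cause of these shifts was not tested.

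The sign turned for Slc1a2 in cerebellum with edgeR (-0.0012), DESeq2 (-0.0016) and TMM (-0.0012), for Hopx with the midbrain covariate (-0.031) and low choroid plexus libraries (-0.011), for Gjb2 (-0.027) and S100a1 (-0.070) with the midbrain covariate, for Aldoa with the choroid plexus covariate (0.0045) and low choroid plexus libraries (0.013), for Aldoc in liver with weights (0.026), and for the difference of the KO effect on Gdf10 between cerebellum and liver with quantile normalization (0.027). None of these was called in the main tests. Leaving out 1 library turned the sign of Hopx (-0.012 to 0.043) and Aldoa (-0.028 to 0.021) in cerebellum, of Aqp4 (-0.23 to 0.012), Hopx (-0.13 to 0.042) and Aldoc (-0.17 to 0.025) in liver, and of the tissue differences for Aqp4 (-0.21 to 0.014), Gdf10 (-0.10 to 0.022) and Hopx (-0.037 to 0.14) against liver and Aldh1l1 (-0.13 to 0.058) against testes. It gave 0 to 6 of the 10 called in cerebellum, 0 in liver and 2 to 3 in testes, 417 to 2317, 284 to 795 and 1711 to 4913 of all genes, and 0 to 1 differing in KO effect between cerebellum and either tissue. The fewest calls over all genes came without WT library 1 in cerebellum and liver and without WT library 3 in testes, and 2317 came without KO cerebellum library 6.

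Replicate numbers are shared across tissues, but the deviations of same-numbered libraries correlated over 0.1 in 10 of 24 cases, so they were not taken as pairs. With the replicate block, 0 and 1 genes differed in KO effect from liver and testes and 9 and 9 were higher in WT cerebellum, as without it. Within a tissue WT and KO share no number. Gfap, Slc1a3 and S100b in liver and Gfap, Aqp4, Gdf10 and S100b in testes were under the filter on low values and were not tested.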
